A study of Mus musculus with 24 samples.

Results

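The 10 genes Tcf7, Id2, Id3, Bach2, Ikzf1, Ikzf2, Ikzf3, Gata3, Runx3 and Ets1, which encode transcription factors of lymphocyte development, were followed in natural killer (NK) cells of mice with and without a lymphoma. They were selected by gene name, and all 10 were found among the 45237 genes of the count table. NK cells were sorted from the spleen of wild-type C57BL/6J mice as cells with NKp46 or NK1.1 and without T cell markers such as CD3 and CD5, and their polyadenylated RNA was sequenced in 24 libraries. Of these, 4 came from control mice without treatment. The others came from mice injected intravenously with tumor cells: 3 libraries with RMA at day 2 (RMA early), 3 with RMA at day 4 (RMA intermediate), 3 with RMA at day 9 (RMA late), 3 with RMA-KR at day 2 (RMA-KR early), 5 with RMA-KR at day 7 (RMA-KR intermediate) and 3 with RMA-KR at day 14 (RMA-KR late). RMA is a T cell lymphoma line that stimulates NK cells little. RMA-KR was made from it by knocking out B2m, which removes MHC-I from the surface, and by adding the NKG2D ligand Rae1-β with a lentivirus. The fluorescent protein ZsGreen is expressed by both lines. RMA-KR is a single clone and stimulates NK cells strongly. The methods give female mice as the default, and for the late-stage RNA comparison the study counts mice per group. For each library, the labels do not say whether it is 1 mouse or a pool, so the p-values measure the spread between libraries. Both tumors were sampled on the same day only at the early stage. At the intermediate and late stages, tumor and day cannot be told apart.

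As background, NK cells arise from a progenitor shared with other innate lymphocytes, and the factors studied here act in that lineage. Id2 and Id3 bind E proteins and keep them from DNA, and Id2 is needed for NK cells to form. Ets1 and Runx3 are DNA-binding factors of NK cell development, and Gata3 supports the maturation and exit of some NK cells. Tcf7 encodes TCF-1, which partners with beta-catenin and is high in immature and memory-like lymphocytes. Bach2 is a repressor that holds back effector genes. Ikzf1, Ikzf2 and Ikzf3 encode Ikaros, Helios and Aiolos, zinc finger proteins that pair with each other.

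Ets1 was the only member whose level differed among the 7 groups by the test used here, and it was highest in NK cells of RMA-KR–bearing mice at day 2 and at day 14. Ikzf1, Ikzf3 and Runx3 varied least over the libraries. Tcf7, Id3 and Ikzf2 were higher in 3 of the 5 RMA-KR intermediate libraries than in the other 2 of that group, as were 21.2% of all genes tested, and Id2, Gata3 and Ets1 were lower, as were 12.8%. These 3 libraries also stood apart in genes unrelated to lineage. Levels are given as normalized CPM, that is, CPM computed with library sizes scaled by the TMM method. The test was edgeR's quasi-likelihood test on the counts, and a gene was called at a Benjamini-Hochberg adjusted p under 0.05 over all 17097 genes that had enough counts to be tested. All 10 members were among these.

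The libraries held 5138651 to 14863500 counts, with a median of 10489204. Within groups, log2 levels of any 2 libraries correlated at 0.810 to 0.964 over the genes tested. NK cell markers were high in every library, with Ncr1, which encodes NKp46, at 1625 normalized CPM or more. Of 10 T cell markers, Cd3d reached 30.6, Cd3g 24.2 and Trac 19.9 normalized CPM, Cd5 reached 23.5 in 1 RMA early library, and Cd4 and Cd8a were at most 2.05 and 1.38. There were 4 libraries that stood apart: control 4 and RMA-KR intermediate 3, 4 and 5. The sum of 10 immediate early genes, which respond within minutes to handling or stimulation, was 1230 to 1369 normalized CPM in them and 4335 to 9834 in the other 20. More genes had at least 1 count in them as well, 24621 to 27820, against 15263 to 24234 elsewhere. The 8 NK cell markers summed to 20267 to 24151 normalized CPM in them and 24009 to 37706 elsewhere. Differences that rest on these libraries are also given without them for Ets1, Id2, Tcf7, Id3, Gata3, Bach2 and Ikzf2, while group means, ranges and correlations include them.

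Promoter sequence is shown for the members whose level was above the control range in RMA-KR early and for which RefSeq lists a window outside annotated exons, Bach2 and Gata3. Each run is the 250 bases before a RefSeq transcript start on GRCm38.p6, written 5′ to 3′ on the strand of the gene. The Bach2 window is chr4:32417185-32417434 (plus strand) and the Gata3 window chr2:9878601-9878850 (minus strand), both inside the gene body. Capitals mark GGAA or TTCC, the core that ETS family proteins such as Ets1 bind, read on both strands, and these forms cannot overlap each other.
Bach2: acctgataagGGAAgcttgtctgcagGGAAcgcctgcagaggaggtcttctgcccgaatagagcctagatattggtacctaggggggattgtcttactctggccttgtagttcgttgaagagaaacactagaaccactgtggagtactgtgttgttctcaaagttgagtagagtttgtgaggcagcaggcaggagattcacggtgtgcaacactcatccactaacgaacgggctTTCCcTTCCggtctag
Gata3: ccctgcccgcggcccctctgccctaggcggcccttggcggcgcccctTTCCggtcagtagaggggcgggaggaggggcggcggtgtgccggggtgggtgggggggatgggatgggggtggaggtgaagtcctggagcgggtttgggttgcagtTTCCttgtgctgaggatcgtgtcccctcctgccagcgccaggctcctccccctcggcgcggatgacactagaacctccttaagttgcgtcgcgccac
The core was present 4 times in the Bach2 window, and 2 times in the Gata3 window. The windows of Ikzf1, a steadier member, held it 0 and 6 times. It is a very common word: 93.4% of 32851 mouse windows of this length hold it, with a median of 3 matches. The matches are a description of these letters and not evidence of binding.

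Ets1 (ENSMUSG00000032035, chr9:32636221-32757820 on mm10) measured 1372, 1264, 1143 and 994 normalized CPM in control libraries 1 to 4. In RMA early it was 913, 1213 and 1163, in RMA intermediate 1175, 1056 and 1001, and in RMA late 1323, 1060 and 1276. RMA-KR early libraries held 1635, 1895 and 2065 normalized CPM, and RMA-KR late libraries 2167, 1493 and 2004. All 6 of these lay above every other library in the study. RMA-KR intermediate held 1420 and 1395 in libraries 1 and 2 and 963, 929 and 891 in the 3 that stood apart.

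The test for any difference among the 7 groups called Ets1 (edgeR, adjusted p = 0.0056). It was the single member called, against 973 of all 17097 genes, or 5.69%. Ets1 was also called in this test under all 31 alternative analyses, with an adjusted p of at most 0.0195. Without the 4 libraries that stood apart the adjusted p was 0.00455. Grouping RMA-KR early with RMA-KR late was a choice made after the values were seen; 2 genes of all those tested (0.0117%) had these 6 libraries entirely above the remaining 18, and none had them entirely below.

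No pairwise comparison called Ets1 by edgeR at the settings used here, with TMM scaling, the filter on low counts and all 24 libraries without further terms. RMA-KR early exceeded control by 0.64 ± 0.17 on the log2 scale (SE; edgeR, unadjusted p = 0.00121, adjusted p = 0.211), and RMA-KR late exceeded control by 0.66 ± 0.17 (adjusted p = 0.0658). At the early stage, where both tumors share the day, RMA-KR was above RMA by 0.77 ± 0.19 (adjusted p = 0.0834). This difference was called when the 4 libraries that stood apart were left out, at a log2 difference of 0.75 with an adjusted p of 0.0486. Other settings did call it, among them edgeR with DESeq2's size factors for RMA-KR late against control (adjusted p = 0.0484) and edgeR with a term for the 4 libraries for RMA-KR early against RMA early (adjusted p = 0.0204). With DESeq2 at default settings the adjusted p was 0.0256 for RMA-KR early against control, 0.0102 for RMA-KR late against control and 0.0134 for RMA-KR early against RMA early, and by edgeR with no filter it was 0.0173, 0.00399 and 0.00257. At the late stage RMA-KR was above RMA by 0.63 ± 0.19 (adjusted p = 0.655). Between RMA-KR late and RMA-KR early the difference was 0.02 ± 0.19. The 5 genes of the dividing-cell list summed to 104 to 327 normalized CPM in RMA-KR early, 683 to 1431 in RMA-KR late and 945 to 1673 in RMA late. They summed to 38.0 to 347 in RMA early and 62.9 to 199 in controls. In RMA-KR late against control, 4 of the 5 were called higher. The 7 macrophage and monocyte markers summed to 26.6 to 30.1 in RMA-KR early, 36.2 to 78.5 in RMA-KR late and 33.2 to 50.9 in RMA late, against 8.74 to 18.1 in controls. Cd68 made up most of this sum, at a mean of 18.1 in RMA-KR early, 57.9 in RMA-KR late, 33.6 in RMA late and 11.1 in controls, and Lyz2 averaged 8.22, 3.86, 5.22 and 0.621 in the same order. The 8 B cell markers summed to 235 to 462 in RMA-KR early, 403 to 488 in RMA-KR late, 335 to 391 in RMA late and 237 to 418 in controls. The part of these lists in the Ets1 result was not tested.

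**Figure D1:**
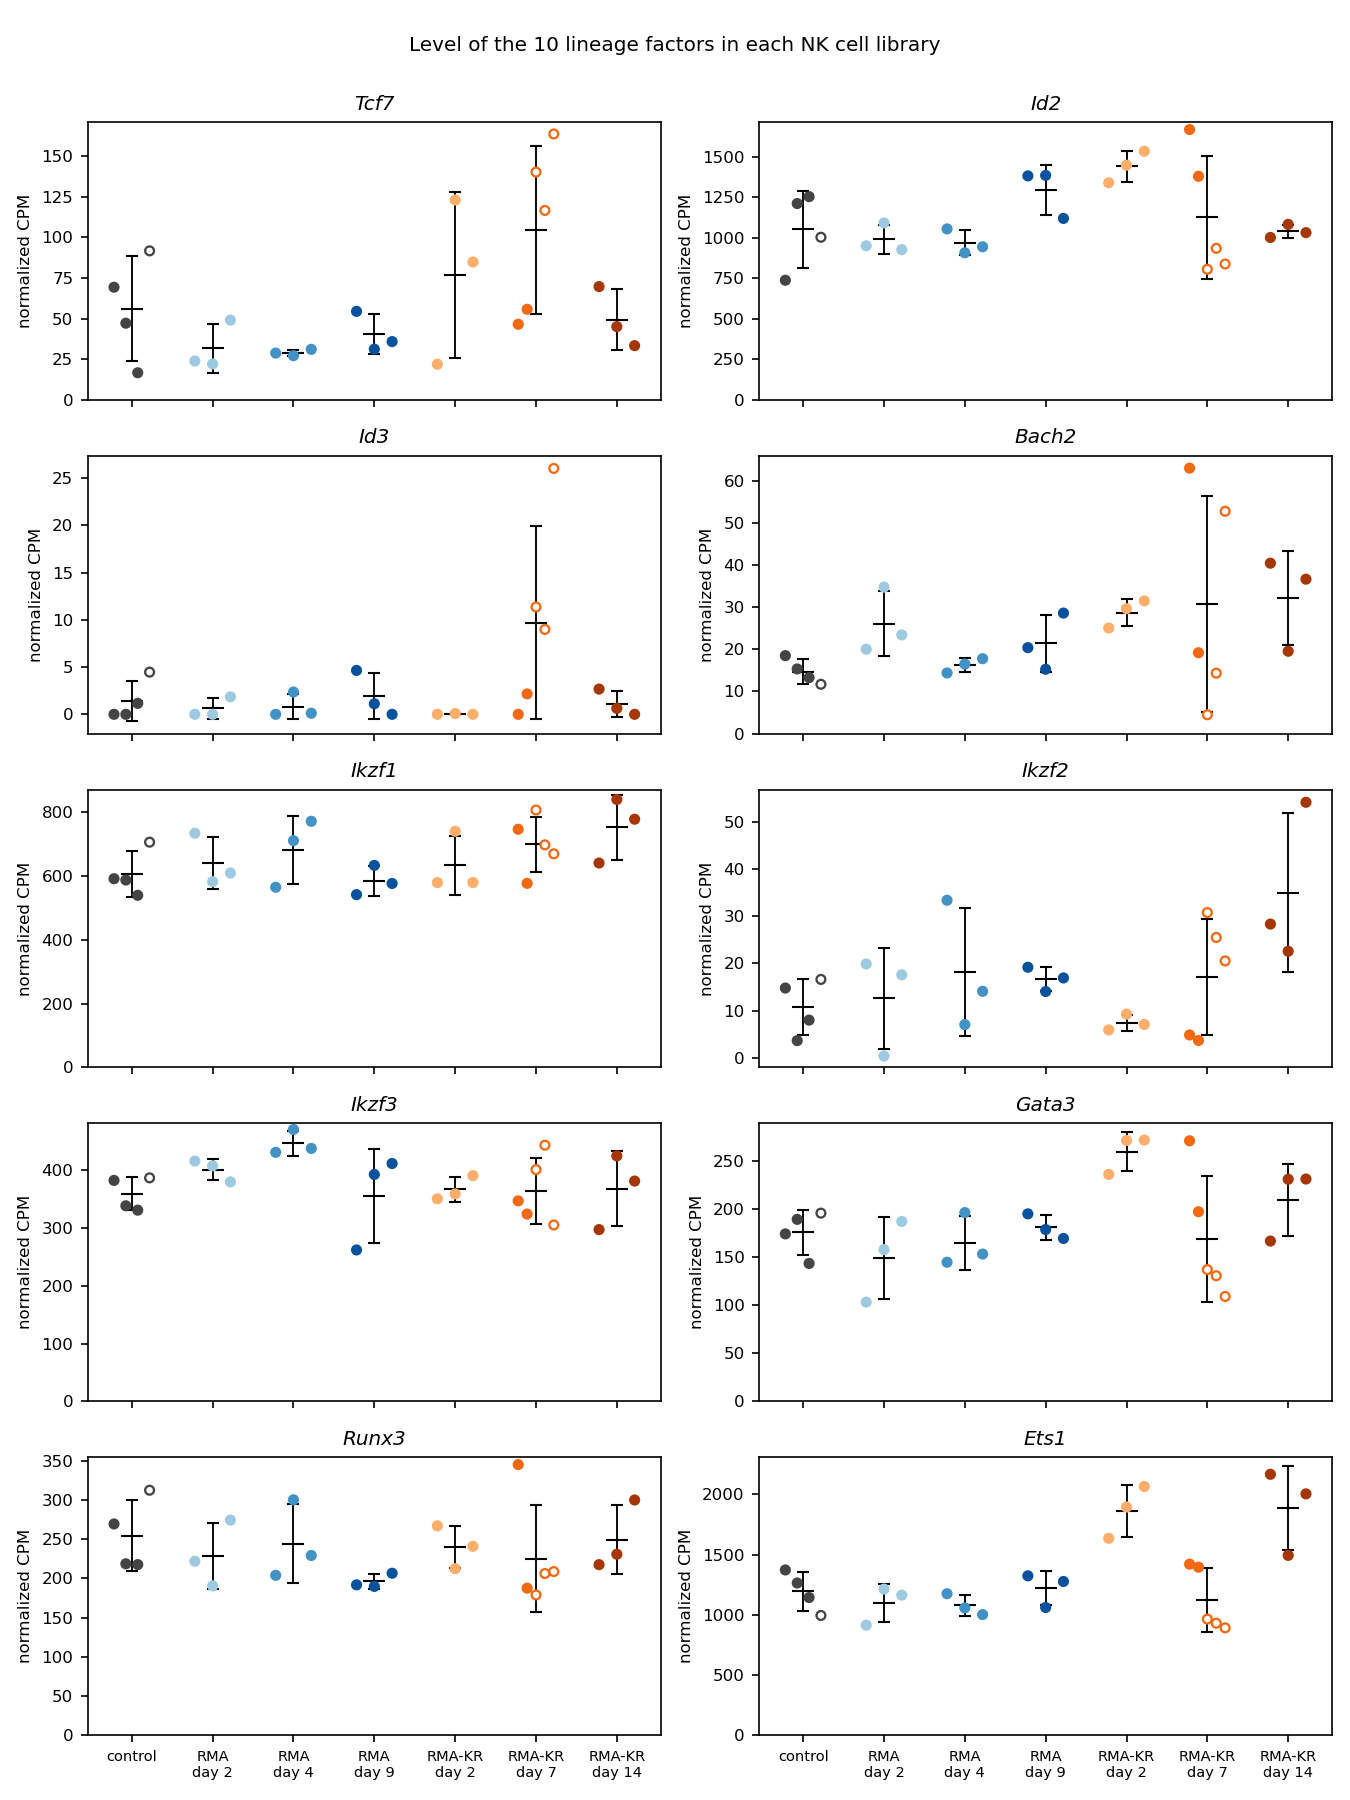
Level of each of the 10 lineage factors (vertical axis, normalized CPM, 1 panel per gene) in the 24 NK cell libraries, by group (horizontal axis); points are libraries, bars the mean ± SD, and open points the 4 libraries that stood apart. Ets1 is at least 1493 in all 6 RMA-KR day 2 and day 14 libraries and at most 1420 in the others.

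Gata3 (ENSMUSG00000015619, chr2:9857078-9890034) encodes a zinc finger factor that binds GATA sequences. It was 236, 271 and 272 normalized CPM in RMA-KR early, above the control libraries at 174, 189, 143 and 196 and above RMA early at 103, 158 and 187. RMA-KR early was the first group in the order of means, at 260 ± 20.5 (SD, n = 3), and its range did not overlap that of RMA-KR late, the next group, at 210 ± 37.2 (n = 3). In RMA-KR intermediate, libraries 1 and 2 held 271 and 197, and the 3 that stood apart held 137, 131 and 109. RMA intermediate, at 145, 196 and 153, and RMA late, at 195, 179 and 169, overlapped the controls, and RMA-KR late held 167, 231 and 231. The log2 difference between RMA-KR early and RMA early was 0.80 ± 0.26 (SE), the lowest unadjusted p of Gata3 among the pairwise comparisons (0.00614), and it was not called (edgeR, adjusted p = 0.256). Against control, RMA-KR early was 0.56 ± 0.24 higher on the log2 scale (adjusted p = 0.545). Without the 4 libraries that stood apart these differences were 0.78 (adjusted p = 0.138) and 0.65 (adjusted p = 0.453).

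Id2 (ENSMUSG00000020644, chr12:25093799-25097140) was high in all libraries. RMA-KR early libraries held 1341, 1449 and 1535 normalized CPM, more than any RMA early library (951, 1093 and 928) or control library (739, 1212, 1255 and 1004). RMA-KR late libraries were at 1003, 1084 and 1032, below the RMA late libraries at 1383, 1386 and 1120. The log2 difference between RMA-KR and RMA was 0.54 ± 0.22 at day 2 (SE; edgeR, adjusted p = 0.347) and −0.32 ± 0.22 at the late stage, where the days differ (adjusted p = 0.729), and neither was called. The change from early to late in RMA-KR minus that in RMA was −0.86 ± 0.31 on the log2 scale (SE), at an unadjusted p of 0.011 and an adjusted p of 0.397 by edgeR. RMA intermediate libraries, at 1056, 908 and 945, lay within the control range. RMA-KR intermediate split again, at 1669 and 1381 in libraries 1 and 2 and 806, 936 and 839 in the 3 that stood apart. Left out together with control 4, those libraries moved the difference between RMA-KR and RMA at the intermediate stage from 0.22 (adjusted p = 0.672) to 0.66 (adjusted p = 0.132).

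Across the 10 members, the RMA-KR early libraries lay entirely above the controls for 4, namely Id2, Bach2, Gata3 and Ets1, where 4.5% of all genes tested did so. For 3 of them, Id2, Gata3 and Ets1, the RMA-KR early libraries also lay above all RMA early libraries, where the share of all genes was 7.21%. Both comparisons use the same RMA-KR early libraries. The test called 0 members in RMA-KR early against control, with 0.0994% of all genes called, and 0 in RMA-KR early against RMA early, with 0.339% called. Both shares changed with single libraries left out, and so did the genes tested, because the filter on low counts was applied anew. That set held 19880 genes without RMA-KR early 2 and 19867 without RMA early 3, beside 17097. Against control the share was 0% without control 1, 2 or 3. Against RMA early it ran from 0.0402% without RMA-KR early 2 to 0.997% without RMA early 3. The median log2 difference of the members from control was 0.25 in RMA-KR early and −0.10 in RMA early, beside 0.00 and −0.06 over all genes tested.

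**Figure D2:**
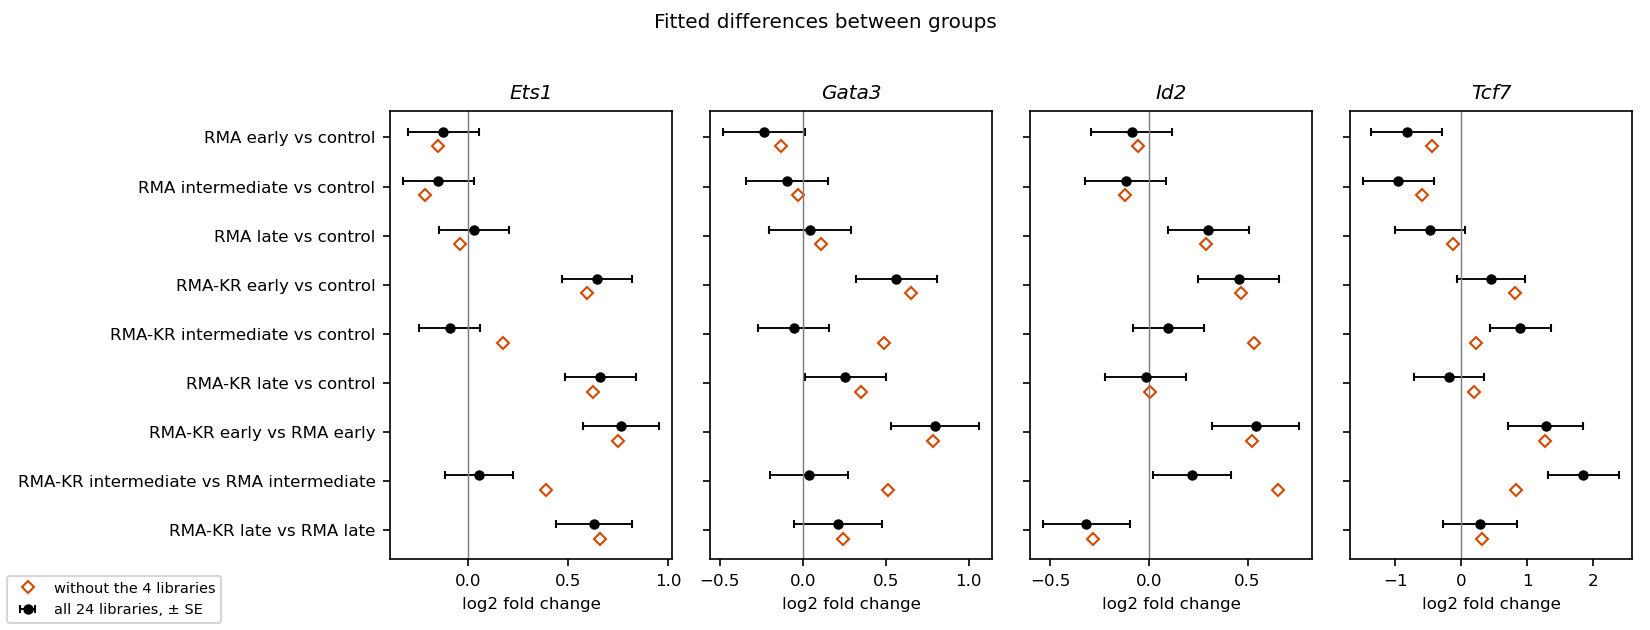
Fitted log2 fold changes (horizontal axis) of Ets1, Gata3, Id2 and Tcf7 in 9 comparisons (vertical axis); filled circles with bars are edgeR estimates ± SE from all 24 libraries, and open diamonds, drawn without an error, are the estimates without the 4 libraries that stood apart. Ets1 lies between 0.60 and 0.66 in both RMA-KR early and RMA-KR late against control, with or without them, whereas Tcf7 in RMA-KR intermediate against RMA intermediate moves from 1.85 to 0.82.

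Tcf7 (ENSMUSG00000000782, chr11:52252371-52283014) varied widely within groups. Controls held 69.3, 47.2, 16.6 and 91.7 normalized CPM, a coefficient of variation of 57.0%. RMA libraries held 23.9, 22.1 and 49.0 at day 2, 28.8, 27.2 and 31.1 at day 4, and 54.4, 31.2 and 35.8 at day 9, all within the control range. RMA-KR early spanned 21.9, 123 and 84.8, and RMA-KR late 69.7, 45.0 and 33.3. RMA-KR intermediate libraries reached 46.5, 55.7, 140, 117 and 164, all above the RMA intermediate range. Among all genes tested, 3.36% had RMA-KR intermediate entirely above RMA intermediate.

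The difference in Tcf7 between RMA-KR intermediate and RMA intermediate was 1.85 ± 0.54 on the log2 scale (SE; edgeR, unadjusted p = 0.0024, adjusted p = 0.155), with 0.643% of all genes called there. With 1 library of these groups left out, that share ran from 0.227% (without RMA intermediate 3) to 0.483% (without RMA-KR intermediate 3). The Tcf7 difference was not called by edgeR with the filter on low counts, but was called by edgeR with no filter (adjusted p = 0.000175) and by DESeq2 with default settings (adjusted p = 0.0131) and with betaPrior=TRUE (adjusted p = 0.0109). The 5 genes of the dividing-cell list summed to 129 to 279 normalized CPM in RMA-KR intermediate, with 134 to 208 in libraries 1 and 2, and 1120 to 1547 in RMA intermediate, and 3 of the 5 were called lower. Markers of type 1 innate lymphoid cells, B cells and T cells had median log2 differences of 2.49, 2.15 and 1.04, and none was called. They summed to 32.3 to 200, 289 to 519 and 21.2 to 70.3 in RMA-KR intermediate. In its libraries 1 and 2 they summed to 32.3 to 40.7, 289 to 366 and 21.2 to 32.3. RMA intermediate held 27.4 to 42.1, 311 to 342 and 20.5 to 36.8. The part of these lists in the Tcf7 difference was not tested. Without the 4 libraries that stood apart that difference was 0.82 (adjusted p = 0.734), and with a term for those libraries in the model it was 0.91 (adjusted p = 0.677). For any difference among groups the adjusted p of Tcf7 was 0.117, and 0.419 without the 4 libraries. The highest 2 values of Tcf7 in the study were those of RMA-KR intermediate 5 and 3, followed by RMA-KR early 2 at 123 and RMA-KR intermediate 4 at 117.

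Id3 (ENSMUSG00000007872, chr4:136143497-136145755) encodes the second E protein inhibitor among the members and was at the edge of detection. It had 0 counts in 10 of 24 libraries. Counts were 0, 0, 11 and 50 in controls 1 to 4 and 0, 24, 99, 79 and 265 in RMA-KR intermediate 1 to 5, where 265 counts correspond to 26.0 normalized CPM. RMA-KR early held 0, 1 and 0 counts, RMA early 0, 0 and 14, RMA intermediate 0, 24 and 1, RMA late 54, 12 and 0, and RMA-KR late 30, 9 and 0. The highest 3 values were those of the RMA-KR intermediate libraries that stood apart, and control 4 was the highest control. No fold change is given, because RMA-KR early was at the floor of 3 counts in each library. The test for any difference did not call it (edgeR, adjusted p = 0.283, and 0.83 without the 4 libraries that stood apart).

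In both groups that contain such libraries, Tcf7, Id3 and Ikzf2 were higher in every library that stood apart than in the rest of the same group, and Ets1 was lower. Of all genes tested, 8.4% were higher in both groups in this way and 4.82% lower. Within RMA-KR intermediate alone, libraries 3, 4 and 5 lay above libraries 1 and 2 for Tcf7, Id3 and Ikzf2 (21.2% of all genes did) and below them for Id2, Gata3 and Ets1 (12.8%). Control 4, with Id2 at 1004 and Gata3 at 196, did not share the low levels of these 2 genes. Besides the immediate early genes, the sum of 6 genes listed as markers of type 1 innate lymphoid cells was 118 to 200 normalized CPM in the 4 libraries and 15.3 to 73.7 in the others. Of these 6, Cxcr6, Tmem176a and Tmem176b were above every other library, and Itga1, Tnfsf10 and Gpr183 were not. Il7r, which encodes the interleukin-7 receptor, was 65.5 to 133 in the 4 libraries and at most 24.3 elsewhere. The 10 T cell markers summed to 51.2 to 70.3 in the 4 libraries and 16.5 to 60.7 in the others, mostly through Cd3d, at 14.7 to 30.6 against 0.966 to 17.2, and Cd3g, at 14.4 to 24.2 against 0 to 23.8. Cd5 was at most 0.714 in the 4. Within RMA-KR intermediate, the 8 NK cell markers summed to 20267 to 21943 in libraries 3, 4 and 5 and 33552 to 35105 in libraries 1 and 2. The 8 B cell markers summed to 383 to 519 in the 4 libraries and 218 to 488 in the others, mostly Ighm, at 332 to 465 against 213 to 483. Cd22 was 20.5 to 46.6 in the 4 and at most 21.6 elsewhere, and the defining markers Ms4a1 and Pax5 were at most 0.803 and 1.02 in the 4. The part of these differences in the levels of Tcf7, Id3, Ikzf2, Ets1, Id2 and Gata3 was not tested. In bulk RNA, more cells of one kind and more RNA per cell cannot be told apart.

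**Figure D3:**
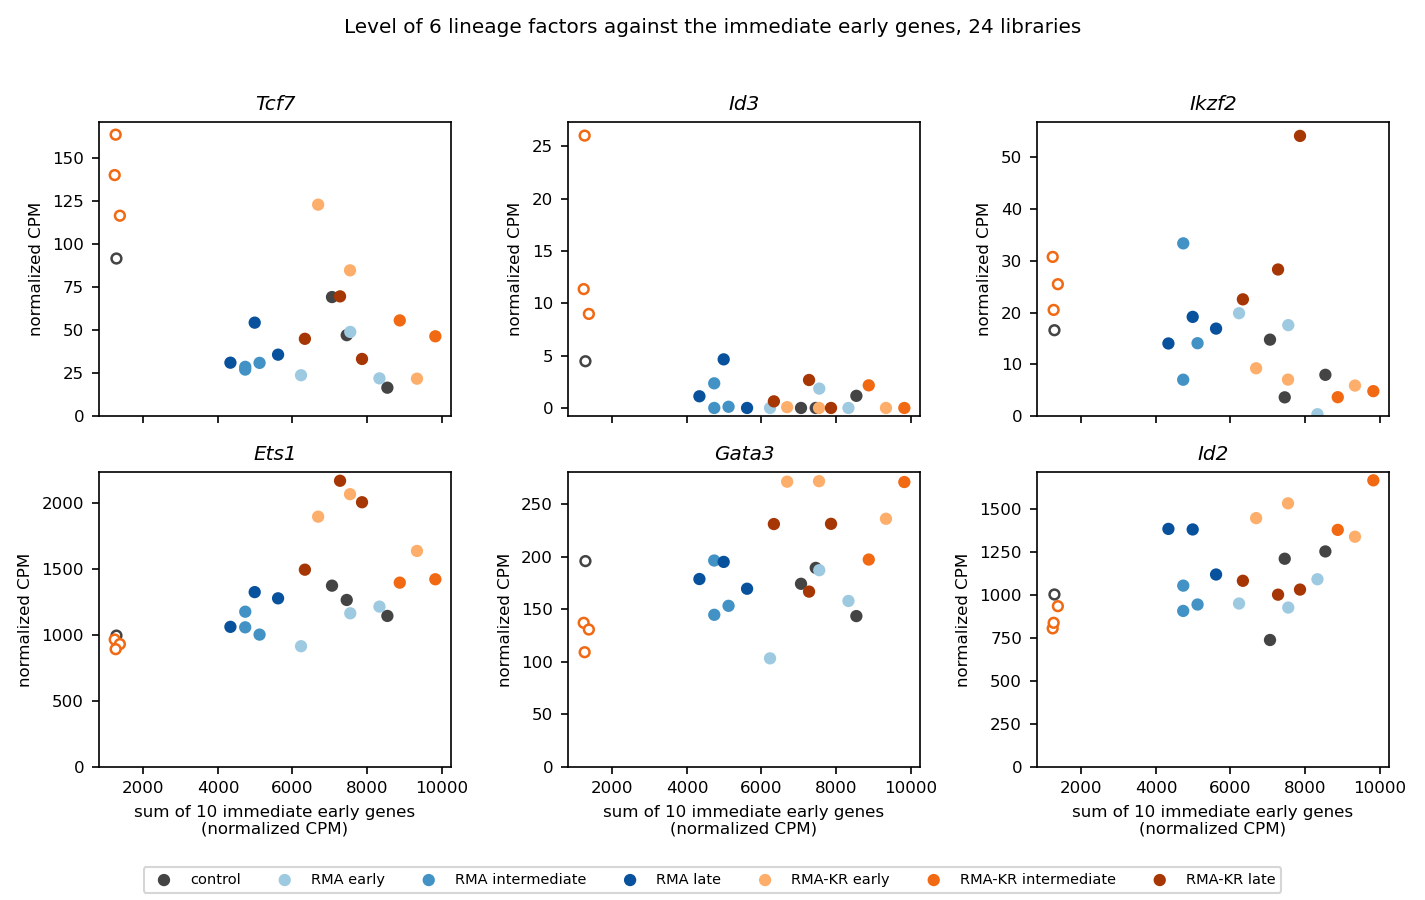
Level of Tcf7, Id3, Ikzf2, Ets1, Gata3 and Id2 (vertical axis, normalized CPM) against the summed level of 10 immediate early genes (horizontal axis, normalized CPM) in the 24 libraries, colored by group. The 4 libraries that stood apart (open points) sit at 1230 to 1369 on the horizontal axis, far left of the others, with low Ets1, and 3 of them hold the highest Id3.

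Bach2 (ENSMUSG00000040270, chr4:32238804-32586108) was low in controls, at 18.5, 15.3, 13.3 and 11.7 normalized CPM, and this was the lowest group mean, at 14.7 ± 2.93 (SD, n = 4). RMA early held 20.01, 34.7 and 23.4, RMA-KR early 25.0, 29.6 and 31.5, and RMA-KR late 40.4, 19.5 and 36.6. All 9 of these libraries were above every control. RMA intermediate, at 14.4, 16.5 and 17.8, and RMA late, at 20.4, 15.3 and 28.6, overlapped the controls. RMA-KR intermediate held 63.0 and 19.2 in libraries 1 and 2 and 4.5, 14.3 and 52.7 in the 3 that stood apart, so the spread of this group was not along that division. The log2 difference from control was 1.13 ± 0.55 in RMA-KR late (SE; edgeR, adjusted p = 0.351), 0.97 ± 0.55 in RMA-KR early (adjusted p = 0.642) and 0.83 ± 0.55 in RMA early (adjusted p = 0.758). In RMA-KR intermediate it was 1.07 ± 0.49, with the lowest unadjusted p of Bach2 among the pairwise comparisons (0.0414; adjusted p = 0.827), and none of the 4 was called. Without the 4 libraries that stood apart these differences were 1.08 (adjusted p = 0.382), 0.90 (adjusted p = 0.667), 0.78 (adjusted p = 0.802) and 1.40 (adjusted p = 0.733) in the same order. Reads of the antisense gene Bach2os, which shares 537 exon bases with Bach2, summed to 175 over the 24 libraries, against 6321 for Bach2.

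Ikzf2 (ENSMUSG00000025997, chr1:69531214-69687245), which encodes Helios, was low in most libraries. RMA-KR late was the highest group, at 28.3, 22.6 and 54.1 normalized CPM. Controls held 14.8, 3.7, 8.0 and 16.6, and RMA-KR early held 5.9, 9.3 and 7.1, both entirely below RMA-KR late. In RMA late the values were 19.2, 14.0 and 16.9. In RMA early they were 19.9, 0.4 and 17.6, and in RMA intermediate 33.3, 7.1 and 14.1, so single libraries moved these means. RMA-KR intermediate held 4.9 and 3.7 in libraries 1 and 2 and 30.7, 25.5 and 20.5 in the 3 that stood apart. RMA-KR late exceeded RMA-KR early by 2.23 ± 0.92 on the log2 scale (SE; edgeR, adjusted p = 0.288), where 0.392% of all genes were called, and exceeded control by 1.70 ± 0.82 (adjusted p = 0.351). Without the 4 libraries that stood apart these differences were 2.25 (adjusted p = 0.313) and 2.03 (adjusted p = 0.406). The share of all genes called between RMA-KR late and RMA-KR early changed when single libraries of these groups were left out. More genes then passed the filter on low counts. It ran from 0.0704% (without RMA-KR early 2) to 0.284% (without RMA-KR late 3) with 1 library left out.

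Ikzf1 and Ikzf3 were among the steadiest members. Ikzf1 (ENSMUSG00000018654, chr11:11685003-11772926) ran from 540 to 841 normalized CPM over the 24 libraries, a coefficient of variation of 13.8%. Its group means ran from 584 ± 46.3 (SD, n = 3) in RMA late to 754 ± 102 (n = 3) in RMA-KR late, and no 2 neighbors in that order were separate. Controls ran from 540 to 707, RMA early from 583 to 735, RMA intermediate from 565 to 772, RMA-KR early from 580 to 741 and RMA-KR intermediate from 578 to 808. RMA-KR late libraries, at 641, 841 and 779, lay above the RMA late libraries at 542, 634 and 577, by 0.37 ± 0.16 on the log2 scale (SE; edgeR, adjusted p = 0.655). Ikzf3 (ENSMUSG00000018168, chr11:98464902-98546031) ran from 262 to 471, with a coefficient of variation of 13.5%. It was highest in RMA intermediate, at 431, 471 and 438, above controls at 383, 339, 331 and 387, by 0.31 ± 0.16 (SE; edgeR, adjusted p = 0.328). RMA intermediate did not overlap RMA early, the next group in the order of means, at 416, 408 and 380. RMA-KR early ran from 351 to 391, RMA-KR intermediate from 306 to 444, RMA-KR late from 297 to 425 and RMA late from 262 to 412, all overlapping the controls.

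Runx3 (ENSMUSG00000070691, chr4:135120652-135177990) encodes a Runt-domain factor that binds DNA together with CBF beta. It ran from 179 to 346 normalized CPM, with a coefficient of variation of 19.2%. RMA late was the lowest group, at 192, 190 and 207, below every control (270, 219, 218 and 313), with a log2 difference of −0.38 ± 0.21 (SE; edgeR, adjusted p = 0.434). All 3 RMA-KR late libraries, at 218, 231 and 300, were above the RMA late libraries, with a log2 difference of 0.35 ± 0.22 (adjusted p = 0.706). RMA early was at 222, 191 and 275, RMA intermediate at 204, 301 and 229 and RMA-KR early at 267, 213 and 241, all 3 overlapping the controls. RMA-KR intermediate held 346 in library 1 and 188, 179, 206 and 209 in the others.

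At the late stage, 4 members lay entirely higher in RMA-KR than in RMA, namely Ikzf1, Ikzf2, Runx3 and Ets1, where 3.95% of all genes did so, and Id2 lay entirely lower, where 5.18% did. The test called 0 of the 17097 genes there (0%), by edgeR with 1249 genes at an unadjusted p under 0.05, among them Ikzf1 and Ets1. With no filter on low counts edgeR called 37 genes (0.0818% of those tested). DESeq2 with default settings called 46 (0.3% of those it tested), and no member was called by either. The median log2 difference of the members was 0.32, beside −0.06 over all genes tested. The 10 immediate early genes summed to 6334 to 7867 normalized CPM in RMA-KR late and 4335 to 5614 in RMA late (median log2 difference 0.63), and the 8 NK cell markers to 24507 to 31329 and 32080 to 37706 (median −0.31). None of these genes was called, and their part in the members' differences was not tested. Against control, RMA-KR late libraries were entirely higher for Bach2, Ikzf2 and Ets1 (5.88% of all genes) and the test called no member, with 1.22% of all genes called. With 1 library of these groups left out, that share ran from 0.467% (without RMA-KR late 1) to 0.901% (without RMA-KR late 3). Between RMA-KR late and RMA-KR early, Ikzf2 was entirely higher (7.24% of all genes) and Id2 and Gata3 were entirely lower (8.28%).

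In RMA-bearing mice the test called 0 members in RMA intermediate against control (2.35% of all genes called), in RMA late against control (2.66%), in RMA late against RMA early (2.87%) and in RMA early against control (0%). In the last, edgeR had 1204 genes and no member at an unadjusted p under 0.05. There DESeq2 with default settings called 69 genes (0.492% of those it tested), and edgeR called 91 with no filter on low counts (0.201%) and 88 without RMA early 3 (0.443%). Several of these shares of all genes changed with the settings and with single libraries left out. Leaving out a library also changed which genes passed the filter on low counts. In RMA late against RMA early the share was 0.457% without RMA late 2, 0.659% without RMA late 1, 0.508% without RMA early 1 and 1.41% without RMA early 2. It was 3.29% without RMA early 3, 2.91% without RMA late 3 and 0.0087% with the libraries of these groups alone. DESeq2 called 10.4% of the genes it tested there with default settings and 12.8% with betaPrior=TRUE. In RMA late against control it was 0.711% without RMA late 2, 0.941% without RMA late 1, 1.5% without control 1 and 1.49% without control 4. It was 2.01% without control 2, 1.86% without control 3 and 2.9% without RMA late 3. With the libraries of these groups alone it was 6.49%, and DESeq2 called 9.3% with default settings and 10.7% with betaPrior=TRUE. In RMA intermediate against control it was 0.942% to 1.41% without any 1 of the RMA intermediate libraries or of controls 1, 3 and 4, and 1.63% without control 2. With the libraries of these groups alone it was 10.2%, and DESeq2 called 7.01% with default settings and 8.42% with betaPrior=TRUE. Bach2 at the early stage and Ikzf3 at the intermediate stage lay entirely above control, where 2.12% and 10.2% of all genes did, and Runx3 at the late stage entirely below, where 8.81% did. Id2 in RMA late lay above RMA early, where 11.5% of all genes did, with a log2 difference of 0.39 ± 0.22 (SE; edgeR, adjusted p = 0.363). In RMA-KR intermediate against control no member was separate, where 2.63% of all genes were, and none was called (0.0175% of all genes called). For the change from early to late in RMA-KR minus that in RMA, edgeR at the settings used here called 0 genes (0%), with 1777 genes at an unadjusted p under 0.05, Id2 among them. Other settings called some: edgeR called 119 genes with no filter on low counts and 57 without RMA early 3, and DESeq2 with default settings called 142, with no member called in any of these.

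**Figure D4:**
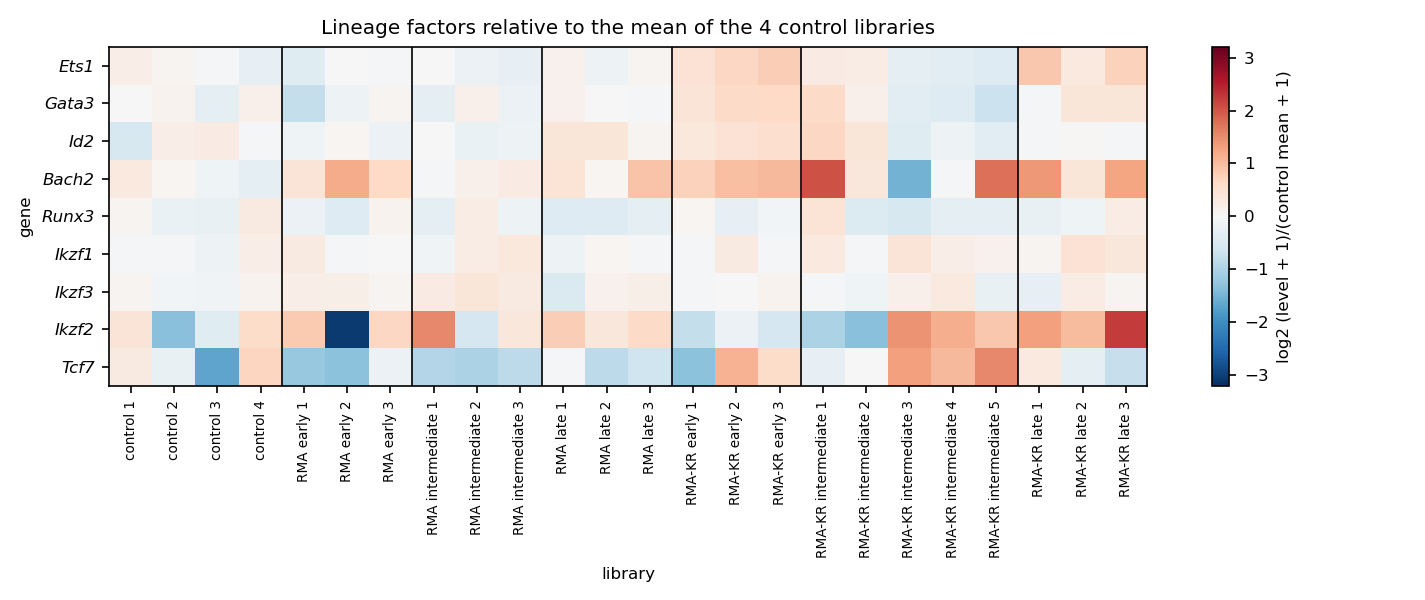
Level of 9 lineage factors (rows) in each of the 24 libraries (columns, grouped by vertical lines), as the log2 ratio of level plus 1 to the control mean plus 1; Id3 is left out because it had 0 counts in 10 of the libraries. Ets1 is positive in all RMA-KR early and late columns, at 0.32 to 0.86. Ikzf1 and Ikzf3 run from −0.46 to 0.47 over all columns, so Ets1 is not deeper in color than these 2 in every column.

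Per kilobase of exon, which allows genes to be compared, Id2 was the highest member, with a mean over the 24 libraries of 462 normalized CPM per kilobase, then Ets1 at 156 and Ikzf1 at 114. Runx3, Gata3 and Ikzf3 followed at 46.9, 46.5 and 43.2, and Tcf7 at 22.7. Bach2 was at 2.46, Id3 at 1.57 and Ikzf2 at 1.43. Over the 20 libraries other than the 4 that stood apart, Id3 was at 0.468 and Ikzf2 at 1.31, so the order of these last 2 turned, as did that of Runx3 at 47.2 and Gata3 at 48.6. The coefficients of variation over the libraries were lowest for Ikzf3, Ikzf1 and Runx3 and highest for Id3 (204%), Ikzf2 (72.7%) and Tcf7 (68.3%). When the 7 group means of a gene were put in order, neighboring groups overlapped in their libraries throughout for Tcf7, Id2, Id3, Bach2, Ikzf1, Ikzf2 and Runx3. A single gap between neighbors was found for Ikzf3 (between RMA intermediate and RMA early), Gata3 (between RMA-KR early and RMA-KR late) and Ets1. For Gata3 and Ikzf3 a library of RMA-KR intermediate, at 271 and 444, still lay within the range of the highest group. The share of all genes with such a gap was not determined, so these gaps only describe the members. For Ets1 the order was RMA-KR late (1888 ± 352, SD, n = 3), RMA-KR early (1865 ± 217, n = 3), then, past the gap, RMA late (1220 ± 140, n = 3), control (1193 ± 163, n = 4), RMA-KR intermediate (1120 ± 264, n = 5), RMA early (1096 ± 161, n = 3) and RMA intermediate (1077 ± 88.7, n = 3). For Tcf7 it was RMA-KR intermediate (105 ± 51.6, n = 5), RMA-KR early (76.6 ± 51.1, n = 3), control (56.2 ± 32.0, n = 4), RMA-KR late (49.4 ± 18.6, n = 3), RMA late (40.5 ± 12.3, n = 3), RMA early (31.7 ± 15.1, n = 3) and RMA intermediate (29.0 ± 1.96, n = 3).

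Among the members, Gata3 and Ets1 varied most alike (Pearson r = 0.73 of log2 levels over 24 libraries), followed by Id2 and Gata3 (0.64) and Tcf7 and Id3 (0.55). Id3 and Ets1 were the most opposed (−0.44). Of 8373 genes with a mean of at least 10 normalized CPM, those most like Tcf7 were Emb (0.81), Kit (0.80) and Crtam (0.72), and those most like Ets1 were Sat1 (0.86), Map1lc3b (0.86) and Twf1 (0.85). Slamf6, a receptor of the SLAM family, was most like Ikzf2 (0.84), and Cd244a, another receptor of that family, was most like Id2 (0.83). These values describe the same 24 libraries, the 4 that stood apart included, and share their depth and scaling.

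Genes that act with the members were examined as lists. Of 27 partner genes, 23 had enough counts to be tested, and 2 were called for any difference among groups by edgeR, Mafk (adjusted p = 0.0165) and Runx1 (adjusted p = 0.0256), a share near the 5.69% of all genes called. Mafk encodes a small MAF protein that pairs with Bach2. It averaged 207 normalized CPM in RMA early and 84.6 in RMA late, and fell by 1.29 ± 0.28 on the log2 scale between them (SE; edgeR, adjusted p = 0.0134), the only partner called in a pairwise comparison at the settings used here, where 2.87% of all genes were called. This call was lost without RMA early 1 (adjusted p = 0.0592), RMA late 1 (0.0983) or RMA late 2 (0.102) and with the libraries of these groups alone (0.0952), and the call for any difference was lost without RMA early 1 (0.0526). Runx1, a relative of Runx3, averaged 226 in RMA early, 216 in RMA-KR early and 228 in RMA-KR late, 165 in controls, 167 in RMA intermediate, 127 in RMA late and 119 in RMA-KR intermediate. In the last group it averaged 169 in libraries 1 and 2 and 85.5 in the 3 that stood apart. Its call for any difference was lost without RMA-KR early 2 (edgeR, adjusted p = 0.0502), RMA-KR intermediate 3 (0.0535), RMA late 1 (0.0544) or RMA late 2 (0.0603), and held without the 4 libraries that stood apart (0.017). The 6 ETS relatives of Ets1, namely Ets2, Fli1, Elf1, Elf4, Gabpa and Etv6, were tested and none was called. None of the 4 TCF/LEF and beta-catenin genes was called, nor any of the 4 E protein and Id genes tested, nor Ikzf5, nor Zfpm1. Over the 23 partners the median log2 difference from control was −0.02 in RMA-KR early and −0.09 in RMA-KR late, beside 0.00 and −0.18 over all genes tested.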

How the data were processed

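NK cell libraries were made by the authors from polyadenylated RNA and read from 1 end. Per the submitters' notes, adaptors and low-quality bases were removed with cutadapt 1.10, ribosomal RNA reads with Bowtie2 2.2.8, and the rest were aligned to mm10 with STAR 2.5.3a and counted on Ensembl genes with HTSeq 0.6.1p1. Strand handling is not given in the sources used here. The deposited values are raw read counts per gene for 45237 genes. Another 48 columns of values per library and 29 columns of the authors' own comparisons (fold changes, p-values) were not used. Groups came from the sample labels. The members and lists were chosen with earlier results of these data known.

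Counts were analysed with edgeR 4.0.16 in R 4.3.3: filterByExpr on the 7 groups, TMM scaling, 1 mean per group over all 24 libraries, robust quasi-likelihood tests and Benjamini-Hochberg adjustment over 17097 genes. DESeq2 1.42.0 served as an alternative, once with the study's own option betaPrior=TRUE. Each SE was the log2 difference divided by the root of its F statistic. Correlations used log2 CPM with a prior count of 2. The scripts were tested on simulated data. All 10 members are named in every comparison; partner genes are named where called, and a list of target genes is not reported here, and the 3 genes most like a member by Pearson r among those with a mean of at least 10 normalized CPM were considered. Libraries of a group differed by 17.9 to 95.2 times the counting noise (chi-square per degree of freedom), and none was a duplicate. At these depths 3 counts correspond to less than 1 normalized CPM.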

Additional observations from a re-analysis of the deposited data

Results flagged for a closer look

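In RMA-KR intermediate, Runx3 was 345.5 normalized CPM in library 1, whereas the other 4 libraries of the group held 179 to 209. The gap to the next library took up 0.821 of the range of the group, above Dixon's critical value of 0.71 for 5 libraries. Among the 20 sets of 4 or 5 libraries examined in this way (10 genes in the control and RMA-KR intermediate groups), it was the single one, and chance marks about 1 in 20.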

How the results depend on the processing

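The alternatives were other scaling, other filters, DESeq2, the replicate number as a block, the libraries of the groups compared alone, each library left out in turn and, added after seeing the data, leaving out or fitting a term for the 4 libraries that stood apart. The same alternatives were run for the partner genes Mafk and Runx1, a choice also made after seeing the data. With 1 library left out the filter on low counts was applied anew. The adjustment was then over 16490 to 20280 genes, beside 17097. All 337 values of the 21 log2 differences followed kept their direction. Of 239 counts of called members, 22 moved. The count for any difference, 1 (Ets1), was 2 with DESeq2 with default settings and with at least 10 counts in every library (Tcf7 and Ets1), 4 with no filter on low counts (Tcf7, Id2, Id3 and Ets1), and 1 to 2 when a library was left out, with 2 without RMA-KR early 1. In RMA-KR early against control, 0 became 1 (Ets1) with DESeq2 with default settings or betaPrior=TRUE and with no filter. In RMA-KR late against control, 0 became 1 (Ets1) with these 3, with DESeq2's size factors in edgeR and with at least 10 counts in every library, and was 0 to 1 when a library was left out, with 1 without RMA-KR late 2. In RMA-KR early against RMA early, 0 became 1 (Ets1) with either DESeq2 setting, with no filter, with at least 10 counts, and without or with a term for the 4 libraries. In RMA-KR intermediate against RMA intermediate, 0 became 1 (Tcf7) with either DESeq2 setting and with no filter. The adjusted p of Ets1 over the alternatives ran from 0.0173 to 0.562 in RMA-KR early against control, from 0.00399 to 0.339 in RMA-KR late against control and from 0.00257 to 0.364 in RMA-KR early against RMA early, and that of Tcf7 at the intermediate stage from 0.000175 to 0.734. The cause of these moves was not tested.

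The replicate numbers did not pair libraries: deviations of same-numbered libraries correlated between −0.118 and 0.202 (median −0.01), over 0.1 in 3 of 64 pairs. With the replicate block the count of called members for any difference stayed at 1 (Ets1, adjusted p = 0.0158) and the pairwise counts at 0, while the genes called for any difference fell from 973 to 550. With at least 10 counts in every library, Id3 and Ikzf2 were not tested. DESeq2 with betaPrior=TRUE and the restriction to the groups compared were not run for the test of any difference. With 3 to 5 libraries per group and a common biological coefficient of variation of 0.852, differences of the size of those of Bach2, Ikzf2 and Tcf7 could be missed. For any difference, DESeq2 with default settings called 2582 of the 12434 genes to which it gave an adjusted p, or 20.8%.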
